A study of Mus musculus with 12 samples.

Results

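The genes described here are 29 members of the GABA and glycine signalling machinery, among 55487 gene identifiers counted in each library. They were chosen by name and function, with earlier results of these data known, and all 29 symbols matched 1 Ensembl gene. They comprise 15 subunits of the GABA-A receptor family (5 alpha, 2 beta, 2 gamma, 3 rho, and delta, epsilon and theta), 2 GABA-B subunits, 5 glycine receptor subunits, 2 GABA transporters of the plasma membrane, the vesicular transporter, 2 chloride cotransporters, gephyrin and the GABA-degrading enzyme. Several common subunits and enzymes of the same system are not among them and are not described here.

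The libraries are RNA-seq of 12 male mice, 3 a group and 1 mouse a library, made to ask what the loss of exon 7 of Auts2, a neurodevelopmental regulator, does to the brain. At postnatal day 0 (P0), forebrains of mice labelled cmv-cre_auts2-ex7koko (P0 knockouts) were compared with littermates labelled BL6 WTLM (P0 wild types). At postnatal day 14 (P14), hippocampi of mice labelled nes-cre_auts2-ex7koko (P14 knockouts) were compared with mice labelled auts2-ex7-fl-het (P14 controls). Both knockouts carry the floxed allele Auts2tm1.1Dare in recombined form, made with Cmv-cre, which acts throughout the body, or Nes-cre, which acts in neural progenitors and the cells they form. The P14 controls are labelled as heterozygous for the floxed allele, and the labels do not say whether they carry Nes-cre. The 2 comparisons therefore differ in age, tissue, Cre line and control genotype at once.

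GABA and glycine open chloride channels built from rings of subunits, the GABA-A and glycine receptors, and GABA also acts on the slower GABA-B receptor, a pair of Gabbr1 and Gabbr2 coupled to G proteins. Which GABA-A subunits a neuron makes sets where its receptors sit and how they respond, and the set is known to turn over as the brain matures. Whether the channels excite or inhibit depends on chloride inside the cell, which Slc12a2 (NKCC1) raises and Slc12a5 (KCC2) lowers, and the known shift from the first to the second accompanies maturation of forebrain neurons.

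Total counts lay between 11247150 and 16796797 per P0 library and between 16830720 and 23340621 per P14 library. Auts2, the targeted gene, had 160.2, 136 and 155 CPM (counts scaled by library size) in the P0 wild types and 165, 182 and 161 in the P0 knockouts, and 97.4, 97.8 and 110.2 in the P14 controls and 92.9, 77.5 and 75.1 in the P14 knockouts. These counts sum all exons and do not check the loss of exon 7. The P0 libraries fall into a series numbered 1407 to 1410 (replicates 1 and 2 of both groups) and one numbered 1415 and 1416 (replicate 3 of both), and the labels do not say what the numbers mean. By mouse number the P0 animals divide otherwise: the wild types (353, 354 and 358) and knockout replicate 3 (356) lie together, and knockout replicates 1 and 2 (373 and 375) apart. At P14 the controls (212, 213 and 215) and knockout replicate 3 (214) lie together as well. P14 knockout replicates 1 and 2 have lower numbers (205 and 134). The labels do not say whether these numbers follow litters, so which knockouts and controls share one is not known at either age. Hippocampal markers such as Prox1 (172, 199.5 and 202 CPM in the P14 controls) were present at P14, the summed markers of cortical excitatory neurons had 1621 to 1965 CPM in the P0 wild types, and the 12 markers of hindbrain and cerebellum summed to 55.5 to 77.6 CPM in the P0 wild types and 51.0 to 69.3 in the P0 knockouts. Of these, 3 had more than 3 counts in every P0 wild type and 3 in every P0 knockout, while Hoxa2, Hoxb2 and Hoxb3 were at 0 in all P0 libraries.

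Many members lie side by side in the genome (GRCm38 coordinates). On chromosome 5, Gabrg1 (70751047 to 70842617), Gabra2 (70957597 to 71095849), Gabra4 (71569749 to 71658308) and Gabrb1 (71658113 to 72149037) lie within 1.40 Mb, and the gene bodies of Gabra4 and Gabrb1 overlap by 196 bases on opposite strands. On the X chromosome, Gabre (72255999 to 72274803), Gabra3 (72432681 to 72656848) and Gabrq (72825178 to 72842602) lie within 587 kb. Of the 29 members, 25 had a promoter in the RefSeq promoter table for GRCm38.p6. The upstream 250 bases of 4 members are shown because these genes carry the clearest differences below and their windows lie outside annotated exons. Each sequence ends at the base before the transcript start. Capitals mark the letters TATAAA or CANNTG, read on either strand, and these motifs do not overlap in the windows shown.
Gabra2, chr5:71095850-71096099, minus strand: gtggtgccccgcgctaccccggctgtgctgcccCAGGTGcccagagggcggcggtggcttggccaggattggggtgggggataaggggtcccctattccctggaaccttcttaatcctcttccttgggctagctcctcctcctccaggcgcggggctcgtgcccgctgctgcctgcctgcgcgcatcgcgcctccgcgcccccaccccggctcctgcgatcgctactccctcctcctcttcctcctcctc
Gabra3, chrX:72656920-72657169, minus strand: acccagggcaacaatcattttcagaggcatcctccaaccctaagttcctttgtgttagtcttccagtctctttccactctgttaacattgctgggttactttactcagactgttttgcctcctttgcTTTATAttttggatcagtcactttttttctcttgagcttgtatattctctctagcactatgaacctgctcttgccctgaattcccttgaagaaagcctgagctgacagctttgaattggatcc
Gabrq, chrX:72824928-72825177, plus strand: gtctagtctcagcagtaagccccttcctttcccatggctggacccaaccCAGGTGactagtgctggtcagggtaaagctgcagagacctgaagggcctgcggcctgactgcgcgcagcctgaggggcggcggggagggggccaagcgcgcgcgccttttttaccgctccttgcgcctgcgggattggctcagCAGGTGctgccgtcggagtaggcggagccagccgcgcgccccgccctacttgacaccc
Slc6a11, chr6:114130991-114131240, plus strand: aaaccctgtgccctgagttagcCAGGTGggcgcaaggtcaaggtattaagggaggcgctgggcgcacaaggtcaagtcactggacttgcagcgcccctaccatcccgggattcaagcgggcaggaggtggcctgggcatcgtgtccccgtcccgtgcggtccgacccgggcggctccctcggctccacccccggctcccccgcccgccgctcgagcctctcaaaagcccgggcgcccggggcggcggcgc
The Gabra3 window, for the first of 2 starts in the table, held TATAAA, as did 12.4% of all 32851 promoter windows of this length, and no CpG. The windows of Gabra2, Gabrq and Slc6a11 held 18, 19 and 25 CpG, where the median over all windows was 6. The other motifs searched on both strands, TGACGTCA and GCGNGGGCG, were in none of the 4 windows and in 1.55% and 4.70% of all windows. The letters CANNTG occurred in these 3 windows, as in 66.2% of all windows. Gabra3 and Gabrq, neighbours that both differ between the tissues in their knockout response below, thus have upstream sequences that differ in CpG content.

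The control libraries show how the members' levels differ between the tissues sampled. Between the P14 control hippocampus and the P0 wild-type forebrain, 20 of 23 tested members passed an adjusted p of 0.05 (edgeR's quasi-likelihood test, Benjamini-Hochberg adjustment over all genes tested), 12 higher and 8 lower at P14. This is beside 64.7% of all 17355 genes tested, so a call in this comparison is common. Age, tissue, control genotype and library number series change together here and cannot be told apart, and in bulk tissue fewer cells of a type and less RNA per cell cannot be told apart either.

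Among the receptor subunits, Gabrd, a subunit of receptors outside synapses, was higher in the P14 controls by 2.53 on the log2 scale (SE 0.20). Gabrb1 was higher by 1.77 (SE 0.09), Gabra4 by 1.71 (SE 0.11) and Gabra5, known for its high level in the hippocampus, by 1.43 (SE 0.10). The opposite direction held for Gabre (-2.36 ± 0.38), the glycine receptor subunits Glra2 (-1.98 ± 0.09) and Glra3 (-1.41 ± 0.19), Gabrq (-1.77 ± 0.23), Gabra3 (-1.20 ± 0.09) and Gabrg1 (-0.55 ± 0.14). Glrb, which pairs with the glycine receptor alpha subunits and also binds gephyrin, was higher at P14 by 1.20 (SE 0.10) while both tested alpha subunits were lower. Abat (GABA transaminase), Gabbr2, Slc12a5, Gabbr1, Slc12a2, Gphn and Slc6a11 were higher at P14 by 1.22, 1.15, 1.06, 0.58, 0.55, 0.38 and 0.33 on the log2 scale. Slc6a13, a GABA transporter known from meninges and other barrier tissue, was lower at P14 (-0.76 ± 0.19). Slc32a1, the transporter that fills vesicles with GABA and glycine, had a small difference (-0.23 ± 0.10, edgeR adjusted p = 0.0455) whose call was lost in 7 of 12 alternative analyses. Gabra2, Gabrb2 and Gabrg3 did not pass, with differences of 0.07 ± 0.44, 0.05 ± 0.12 and -0.05 ± 0.10.

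**Figure D1:**
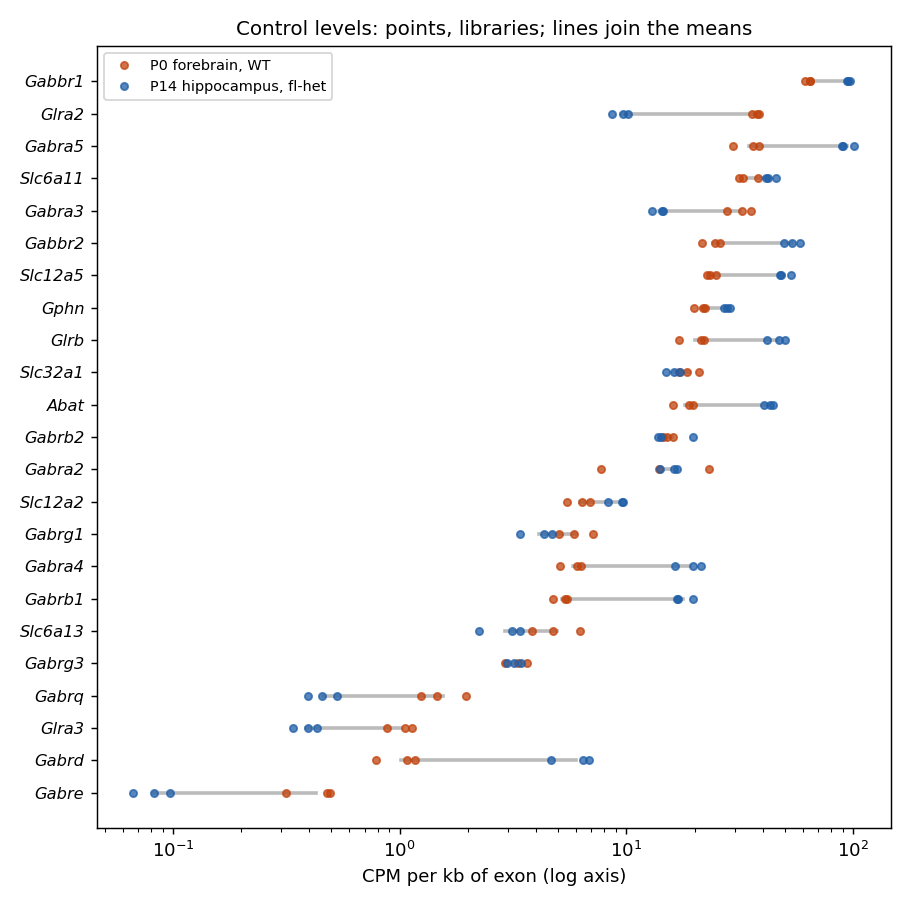
Levels of the 23 members tested between the controls, in CPM per kb of exon on a log axis, with 1 point per library and a line joining the group means. Gabra3, Gabrq, Gabre, Glra2 and Glra3 lie to the left at P14, and Gabrd, Gabra4 and Gabrb1 have the longest lines to the right.

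Per kb of exon, Gabbr1 had the highest counted level among the members in both control groups. Its mean was 63.4 ± 2.004 CPM per kb (SD, n = 3) at P0 and 95.0 ± 1.45 at P14. At P0 it was followed by Glra2 at 37.3 ± 1.44, Gabra5 at 34.6 ± 4.56, Slc6a11 at 34.1 ± 3.52 and Gabra3 at 31.8 ± 3.79 CPM per kb, and neighbours in this order differed by less than their spread. At P14, Gabra5 reached 93.6 ± 6.67 CPM per kb, level with Gabbr1 within its spread, while Gabra3 stood at 13.9 ± 0.861 and Glra2 at 9.47 ± 0.770. Reads shared with an overlapping gene were not counted. The counts of Gabra5 held 83.9% of the sum of its strand counts, and those of Gabbr1 100%. The order of Gabra5 against Gabbr1 at P14, and against the members near it at P0, is therefore not settled. At the low end were Gabrd, Glra3 and Gabre at P0, at 1.01 ± 0.201, 1.03 ± 0.133 and 0.430 ± 0.0994 CPM per kb. The cerebellar subunit Gabra6, the retinal rho subunits Gabrr1, Gabrr2 and Gabrr3, and the glycine receptor subunits Glra1 and Glra4 had at most 12 counts in any library and were not tested. Gabre had between 6 and 32 counts per library and was not tested at P14.

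In the P0 forebrain, all 23 tested members had a lower fitted level in the knockouts than in the wild types, with log2 fold changes from -1.37 to -0.03 and a median of -0.28. The median over all 16176 genes tested was 0.00, and 50.1% of them were lower. None of the 23 members passed an adjusted p of 0.05 by edgeR, beside 0.909% of all genes. At an unadjusted p of 0.05, 16 of the 23 were lower and none was higher, beside 9.17% of all genes that were lower at that threshold. In 13 of the 23, every knockout library lay below every wild-type library, beside 11.1% of all genes. The differences are mostly small, and genes of 1 tissue sample are not independent of each other. Of the 15 marker lists, 3 are given here because nearly all of their genes had lower fitted levels in the P0 knockouts, a choice made after their values were seen: 7 of 7 tested markers of oligodendrocyte precursors, 12 of 13 of dentate granule cells (2 of them called) and 12 of 12 of meninges, fibroblasts and mural cells. The interneuron markers were split between higher and lower. The summed level of the first was 245 to 289 CPM in the wild types and 213 to 219 in the knockouts, and that of the second 272 to 318 against 235 to 239 CPM. The third overlapped, at 278 to 306 CPM in the wild types and 203 to 289 in the knockouts. Other lists were split or went the other way. The summed CA pyramidal markers were 1102 to 1290 CPM in the wild types and 1339 to 1498 in the knockouts. Among 13 tested CA pyramidal markers, 6 were higher and 7 lower. Neural progenitor markers were higher in 6 of 10, and choroid plexus markers in 7 of 11 tested. None of these markers was called. The part of the marker lists in the members' differences at P0 was not tested.

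The number of members past the adjusted threshold at P0 depended on the analysis used, while at least 20 of the tested members were lower in each alternative run. DESeq2 called 6 members (Gabra2, Gabrg3, Gabbr2, Glra3, Slc6a11 and Slc12a5), beside 2.36% of all genes. With a term for the number series in the fit, edgeR called 6 (Gabra4, Gabrg3, Gabbr2, Glrb, Slc6a11 and Abat), beside 2.87% of all genes, and all 23 were lower. Within the first number series alone, with 2 libraries a group, 14 of 23 were called and lower, beside 12.9% of all genes, and 22 of 23 were lower with a median of -0.36. In that series the knockouts (mice 373 and 375) and wild types (353 and 354) also lie apart in mouse number. Genotype and mouse-number group cannot be told apart there, nor in the fit below without knockout replicate 3. The second series has 1 library a group and allows no test. There, 21 of the 23 members were lower in the knockout library and Gabre and Slc32a1 were higher, beside 48.3% of all genes that were lower. Leaving out knockout replicate 3 gave 4 calls (Gabrg3, Gabbr2, Slc6a11 and Slc12a5), beside 4.69% of all genes, and leaving out wild-type replicate 3 gave 3 (Gabra2, Gabrg3 and Gabbr2), beside 1.51%. Leaving out any other P0 library gave 0 members, but only 1 to 15 genes were then called among all those tested, so these zeros are no result about the members. In a comparison chosen after seeing the data, knockout replicate 3 was set against the 3 wild types, whose mouse numbers lie next to its own; the lone knockout is there assumed to vary like the wild types. Of 24 members tested, 20 were lower, with a median log2 fold change of -0.32, beside 49.9% of all genes that were lower. Of these members Gabrb2 alone was called (-0.77), beside 2.17% of all genes. This call rests on 1 knockout library.

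The alpha subunits of the GABA-A receptor, which help form the GABA site, come first. Gabra2 had 177, 107 and 58.8 CPM in the P0 wild types and 43.8, 43.4 and 44.8 in the P0 knockouts, a log2 fold change of -1.37 ± 0.46 (SE, unadjusted p = 0.0370, edgeR adjusted p = 0.277). The knockout libraries were nearly equal, and the wild types spread widely, with replicate 3 closest to the knockouts. Gabra4 had 36.8, 38.4 and 31.1 CPM in the wild types and 31.1, 27.3 and 24.7 in the knockouts (-0.36 ± 0.11), with no overlap although the lowest wild type and the highest knockout differed by less than 0.1 CPM. Gabra5 had 114, 107 and 87.8 against 84.8, 88.2 and 81.3 CPM (-0.28 ± 0.10). Gabra3 had 138, 127 and 109 against 114, 109 and 99.0 CPM (-0.22 ± 0.09). In both of these 1 knockout library lay above the lowest wild type.

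For the beta and gamma subunits, the pattern was the same in direction. Gabrg3 came nearest to the threshold at P0, with 43.6, 39.9 and 34.7 CPM in the wild types and 25.2, 31.9 and 27.0 in the knockouts (-0.50 ± 0.11, edgeR adjusted p = 0.0567), and the groups did not overlap. Gabrg1 had 46.4, 56.1 and 39.6 against 38.6, 32.8 and 37.3 CPM (-0.39 ± 0.12). Gabrb1 had 75.9, 74.3 and 65.5 against 63.9, 60.6 and 54.1 CPM (-0.28 ± 0.09), without overlap in either gene. Gabrb2, a partner of several alpha subunits, had a mean of 96.7 ± 5.02 CPM (SD, n = 3) in the wild types and 83.2 ± 24.4 in the knockouts, with knockout replicate 3 at 56.4 CPM and the other knockouts at 104 and 89.2, and the groups overlapped.

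The rarer subunits were few in reads. Gabrq, the theta subunit, had 6.63, 10.5 and 7.85 CPM in the wild types and 5.96, 4.55 and 5.62 in the knockouts (-0.63 ± 0.20), all knockouts below all wild types. Gabrd and Gabre differed by -0.07 ± 0.25 and -0.30 ± 0.31 on the log2 scale, with overlapping groups.

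Of the GABA-B receptor, Gabbr2, the subunit that couples to the G protein, had 164, 173 and 144 CPM in the P0 wild types and 132, 119 and 133 in the knockouts (-0.33 ± 0.09, edgeR adjusted p = 0.0785), without overlap. Gabbr1, the subunit that binds GABA, differed by only -0.10 ± 0.07, and its groups overlapped. The glycine receptor subunits followed: Glra2, the main alpha subunit of the immature brain, had 122, 118 and 113 against 101, 101 and 97.6 CPM (-0.24 ± 0.07). Glra3 had 10.5, 8.09 and 9.73 against 7.23, 4.22 and 5.14 CPM (-0.78 ± 0.20, edgeR adjusted p = 0.0788). In both alpha subunits the groups did not overlap. Glrb had 102, 99.0 and 79.1 against 83.0, 72.6 and 70.1 CPM (-0.32 ± 0.10), with 1 knockout above the lowest wild type.

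Among transporters, scaffold and enzyme, Slc6a11 (GAT3), which clears GABA into astrocytes, had 159, 192 and 165 CPM in the P0 wild types and 125, 119 and 148 in the knockouts (-0.40 ± 0.10, edgeR adjusted p = 0.0647), without overlap. Beside it, 10 of 12 astrocyte markers were lower in the P0 knockouts, with a median log2 fold change of -0.36. Of these, Aqp4 and Slc4a4 passed the adjusted threshold. The markers' summed level was 819.8 to 1044 CPM in the wild types and 772 to 773 in the knockouts, with none at 0. Their part in the result was not tested. Abat, which breaks down GABA, had 146, 153 and 124 against 119, 118 and 113 CPM (-0.28 ± 0.09). Gephyrin (Gphn), the scaffold under inhibitory synapses, had 81.8, 83.0 and 74.3 against 71.4, 68.0 and 70.0 CPM (-0.20 ± 0.08), the smallest difference among the 13 members whose groups did not overlap.

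Slc32a1 marks neurons that release GABA or glycine. It had 51.7, 58.7 and 47.9 CPM in the P0 wild types and 44.8, 48.6 and 57.3 in the knockouts (-0.07 ± 0.11, edgeR adjusted p = 0.785), with overlapping groups. Beside it, 8 of 15 tested interneuron markers were higher and 7 lower at P0, none passed the adjusted threshold, and their summed level was 792 to 853 CPM in the wild types and 810.2 to 854 in the knockouts. For Slc32a1 and Gabra5, reads shared with an overlapping gene were left out by the counting: their unstranded counts held 70.3% and 83.9% of the sum of the strand counts, against 93.2% over all genes.

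**Figure D2:**
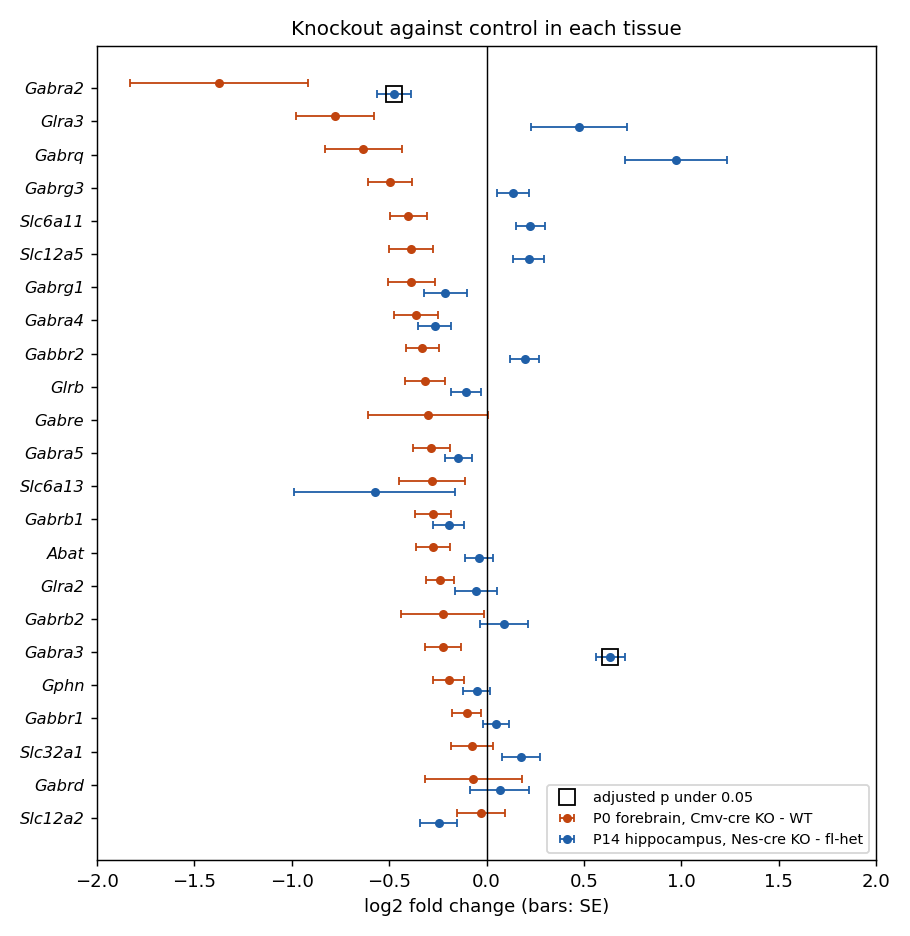
Log2 fold changes of the knockouts against their controls for each tested member, with bars of 1 SE, ordered by the P0 value; squares mark an adjusted p under 0.05. All 23 P0 points lie below 0, while the 22 P14 points are split evenly, with Gabra3 and Gabra2 called in opposite directions.

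In the P14 hippocampus the members did not share a direction: 11 of 22 tested were higher in the knockouts and 11 lower, with a median log2 fold change of 0.01 (all genes, -0.01). Gabra3 rose and Gabra2 fell, so 2 of 22 passed the adjusted threshold, beside 1.99% of all 17208 genes tested. At an unadjusted p of 0.05, 5 members were higher (Gabra3, Gabrq, Gabbr2, Slc6a11 and Slc12a5) and 4 lower (Gabra2, Gabra4, Gabrb1 and Slc12a2), beside 15.2% of all genes in either direction.

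Gabra3 was the clearest. It had 56.3, 56.7 and 50.7 CPM in the P14 controls and 85.8, 82.4 and 84.0 in the P14 knockouts, a log2 fold change of 0.64 ± 0.08 (SE, edgeR adjusted p = 0.000524). Every knockout lay above every control, and the call held in all 13 alternative analyses, with values from 0.59 to 0.67. Its level in the P14 knockouts stayed below that of either P0 group. Gabrq, its neighbour on the X chromosome, had 2.42, 2.85 and 2.11 CPM in the controls and 6.66, 4.36 and 3.24 in the knockouts (0.97 ± 0.26, edgeR adjusted p = 0.0732), without overlap, and was called by DESeq2, without the filter on low counts and in 1 fit on all 12 libraries. Gabre, on the other side of Gabra3, had 0.462, 0.391 and 0.316 CPM in the controls and 0.993, 1.16 and 0.508 in the knockouts, from too few reads for the test: knockout replicate 3 and control replicate 1 held 8 counts each, so its groups are not told apart. Of the 22 members tested at P14, 9 had groups that did not overlap, 5 with the knockouts above and 4 with the knockouts below, beside 20% of all genes in either direction.

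Beside these genes, markers of other regions and cell types differed at P14. Of 13 matched markers of cortical excitatory neurons, 10 were higher in the knockouts and 5 were called, all higher, including Foxp2 (1.90, 1.84 and 1.11 CPM in the controls and 7.50, 8.68 and 6.99 in the knockouts) and Mef2c (145, 146 and 136 against 219, 203 and 221). Their summed level was 2671 to 2870 CPM in the controls and 2839 to 3029 in the knockouts. Of 14 striatal markers, 12 were higher, 2 were called, and the sum was 238 to 280.1 against 316 to 415 CPM. Of 14 dentate granule cell markers, 12 were lower, 9 were called, and the sum was 793 to 851 against 556 to 588 CPM. None of these markers was at 0 in a whole group. Other lists differed too: all 8 oligodendrocyte markers were lower, with none called. The interneuron markers were split, with 10 of 15 tested higher and 5 lower, and the 1 called was lower. Summed interneuron markers were 744 to 900 CPM in the controls and 769 to 851 in the knockouts. Neural progenitor markers were lower in 8 of 10, and the 1 called was lower. Of 10 tested markers of thalamus and hypothalamus, 7 were lower and 2 were called, both lower. The CA pyramidal markers had 2 calls higher and 1 lower. The part of the marker lists in the members' differences was not tested.

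Gabra2 went the other way. It had 108, 124 and 128 CPM in the P14 controls and 77.4, 91.8 and 87.7 in the P14 knockouts (-0.48 ± 0.09, edgeR adjusted p = 0.0110), without overlap. The call was lost without P14 knockout replicate 1 (-0.41, adjusted p = 0.101), without P14 control replicate 2 (-0.45, adjusted p = 0.0866) and in the fit on all 12 libraries (-0.49, adjusted p = 0.563). Its neighbour Gabra4 had 129.7, 119.7 and 99.4 CPM in the controls and 95.5, 96.0 and 95.8 in the knockouts (-0.27 ± 0.09, edgeR adjusted p = 0.143). Gabrb1 had 231, 235 and 272 against 204, 221 and 215 CPM (-0.20 ± 0.08, edgeR adjusted p = 0.249). In both genes the knockouts lay below all controls. Gabrg1, the fourth gene of the chromosome 5 cluster, had 37.0, 34.1 and 26.6 against 26.1, 28.1 and 29.5 CPM (-0.21 ± 0.11). All 4 genes of this cluster were lower in the knockouts at both ages, beside all 23 tested members at P0 and 11 of 22 at P14. Gabra2 was the only one called, at P14, and the groups of Gabrg1 overlapped there. Gabra5 had 301, 266 and 268 CPM in the P14 controls and 246, 249.8 and 254 in the knockouts (-0.15 ± 0.07, adjusted p = 0.342 by edgeR).

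Further members were higher in the P14 knockouts without passing. Gabbr2 had 359, 329.8 and 388 CPM in the controls and 411, 414 and 399 in the knockouts (0.20 ± 0.07, edgeR adjusted p = 0.211). Slc6a11 had 207, 213 and 230.2 against 265, 249 and 241 CPM (0.23 ± 0.07, edgeR adjusted p = 0.141), while the summed astrocyte markers were 7508 to 7719 CPM in the controls and 7194 to 7491 in the knockouts. Groups did not overlap in Gabbr2 or Slc6a11. Gabrg3 had 38.1, 35.5 and 40.9 against 41.7, 41.7 and 41.5 CPM (0.14 ± 0.08). The glycine receptor subunits differed by -0.05 ± 0.11 (Glra2), 0.47 ± 0.25 (Glra3) and -0.11 ± 0.08 (Glrb), with 3.64, 3.96 and 3.11 CPM of Glra3 in the controls and 6.85, 4.41 and 3.37 in the knockouts. Groups of Glra2, Glra3 and Glrb overlapped. Slc32a1 had 48.4, 42.0 and 45.3 against 51.3, 57.2 and 43.3 CPM (0.18 ± 0.10), and Gphn 107, 101 and 104 against 102, 100.4 and 97.0 (-0.05 ± 0.07). Abat, Gabbr1, Gabrb2, Gabrd and Slc6a13 differed by -0.04 ± 0.07, 0.05 ± 0.07, 0.09 ± 0.12, 0.07 ± 0.15 and -0.57 ± 0.41 on the log2 scale, all with overlapping groups. Beside Slc6a13, 11 of 12 markers of meninges, fibroblasts and mural cells were lower in the P14 knockouts, none called, with a summed level of 428 to 469 CPM in the controls and 300.3 to 419 in the knockouts; their part was not tested.

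One control library weighed on the P14 counts. Without P14 control replicate 3, 8 members were called, beside 10.3% of all genes: Gabra3, Gabbr2, Slc6a11, Slc12a5 and Gabrb2 higher, and Gabra2, Gabra4 and Gabrg1 lower. Slc12a5 was then at 0.28, Gabbr2 at 0.26 and Slc6a11 at 0.28 on the log2 scale.

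**Figure D3:**
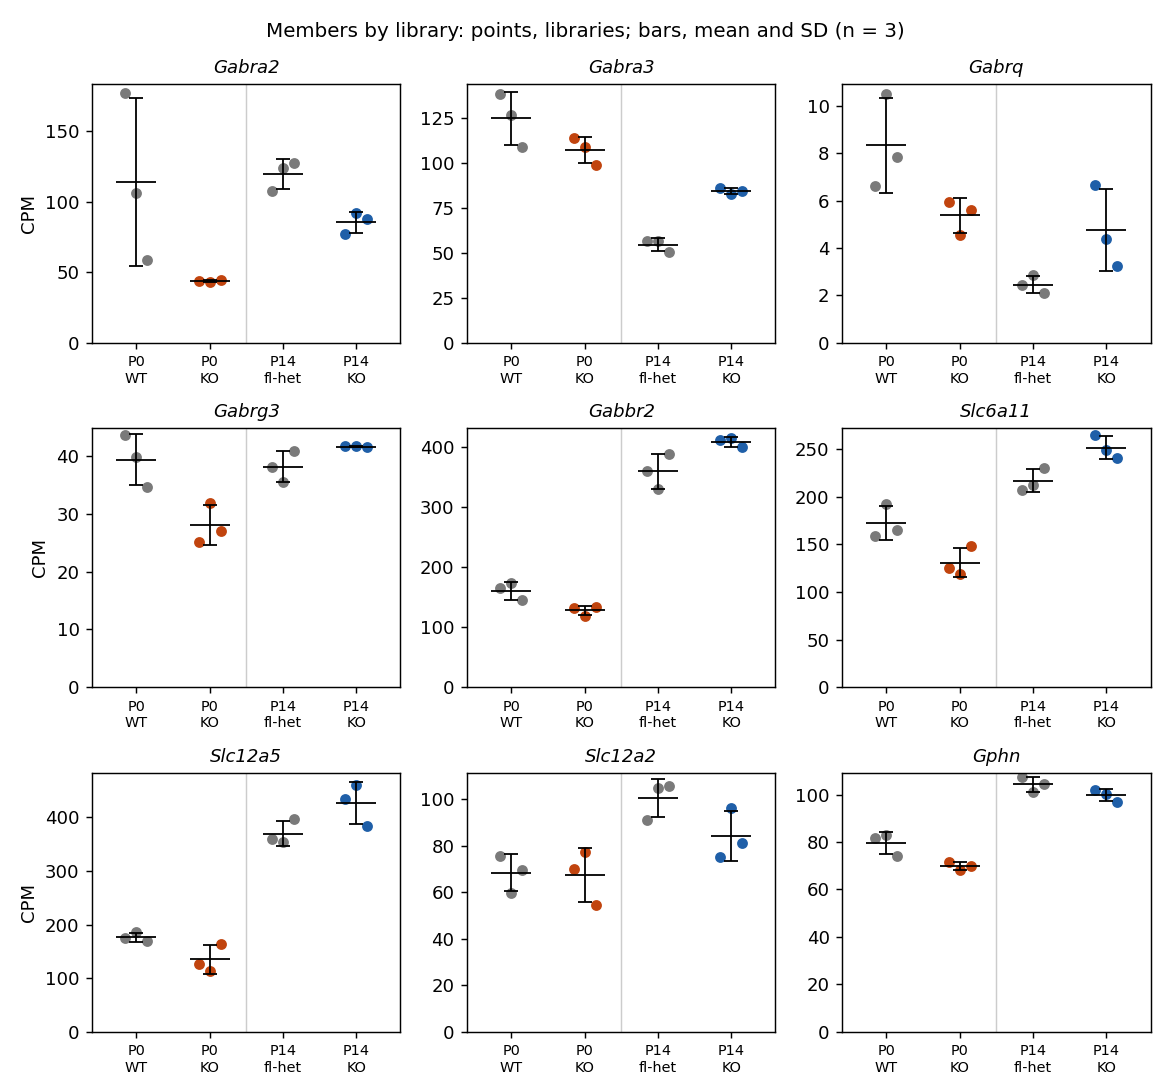
CPM of 9 members in each of the 12 libraries, with the mean and SD of each group of 3; every axis starts at 0. The group means of Gabra3 and Gabrq are lower in the P0 knockouts and higher in the P14 knockouts than in their controls, and the mean of Gabra2 is lower in the knockouts at both ages.

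Whether the knockout difference itself changed between the tissues was tested in 1 fit on all 12 libraries, as the log2 fold change at P14 minus that at P0. Of 23 tested members, 21 were positive and Slc6a13 and Slc12a2 negative, with a median of 0.22 (all genes, -0.01). The difference passed the adjusted threshold in 6 members, all positive, beside 1.79% of all 18189 genes tested. They were Gabra3 (0.84 ± 0.12, edgeR adjusted p = 0.000734), Slc6a11 (0.61 ± 0.13, 0.0134), Gabrq (1.59 ± 0.34, 0.0174), Gabbr2 (0.51 ± 0.12, 0.0255), Gabrg3 (0.62 ± 0.15, 0.0311) and Slc12a5 (0.59 ± 0.15, 0.0489). In each of the 6 the fitted level was lower in the P0 knockouts and higher in the P14 knockouts than in their controls. Of these 6, Gabra3 alone kept its call when any 1 of the 12 libraries was left out. The count fell to 1 without P14 knockout replicate 1 or P0 wild-type replicate 2, to 2 without P0 knockout replicate 2, and to 3 without P14 knockout replicate 2, P14 control replicate 1, P14 control replicate 2 or P0 wild-type replicate 1. Over all genes the calls fell as well in these 7 omissions, to between 125 and 176, beside 326. Since age, tissue, Cre line and control genotype change together, the difference cannot be assigned to any of them.

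The chloride cotransporters were followed as a pair. Slc12a5, the exporter of mature neurons, had 175, 185 and 169 CPM in the P0 wild types and 127, 114 and 164 in the P0 knockouts (-0.39 ± 0.11, edgeR adjusted p = 0.128). At P14 it had 359, 354 and 397 CPM in the controls and 435, 461 and 384 in the knockouts (0.22 ± 0.08, edgeR adjusted p = 0.202). P0 knockout replicate 3 was near the wild types and the other P0 knockouts well below, and at P14 knockout replicate 3 fell within the control range. Slc12a2, the importer, had 75.5, 59.8 and 69.7 against 70.1, 77.4 and 54.6 CPM at P0 (-0.03 ± 0.13). At P14 it had 91.0, 105 and 106 against 75.1, 96.1 and 81.1 CPM (-0.25 ± 0.10, edgeR adjusted p = 0.228). The groups overlapped at both ages.

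As a description chosen after these values were seen, the ratio of Slc12a5 to Slc12a2 in CPM per kb of exon was formed in each library. It was 3.39, 4.55 and 3.55 in the P0 wild types and 2.65, 2.15 and 4.42 in the P0 knockouts (two-sided exact permutation p = 0.3). In the P14 controls it was 5.79, 4.95 and 5.51, and in the P14 knockouts 8.48, 7.04 and 6.95 (two-sided exact permutation p = 0.1, the smallest that 3 against 3 can give). The P14 knockouts thus all lay above the P14 controls, and the P0 groups overlapped. Choroid plexus, which also makes Slc12a2, varied among the P14 libraries: its summed markers lay at 165 to 2623 CPM in the controls and at 1408 to 2085 in the knockouts, and their part in the ratio was not tested.

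Gabra2 had the largest fitted difference of the 23 tested members at P0, and its neighbourhood was examined for that reason. Gabra2 shares chromosome 5 with Auts2, 60.3 Mb away. Within 5 Mb of Gabra2, 47 genes were tested at P0 and 1 passed the adjusted threshold, Atp10d, a lipid flippase gene 1.11 Mb away. Atp10d had 15.4, 14.9 and 8.85 CPM in the P0 wild types and 5.004, 4.39 and 4.65 in the P0 knockouts (-1.47, edgeR adjusted p = 0.0164; lost without P0 knockout replicate 1 or 2 or wild-type replicate 1 or 2, at adjusted p from 0.0522 to 0.131). Like Gabra2, it was lowest among the wild types in replicate 3 and nearly equal in the knockouts. At P14 it had 4.91, 4.35 and 4.85 CPM in the controls and 5.26, 3.95 and 5.02 in the knockouts. The 43 genes of this window that are not members had a median log2 fold change of 0.03 at P0, with 18 lower and 25 higher. At P14, Gabra2 and the predicted gene Gm6051 were called in this window, Gm6051 higher from few reads (0.462, 0.335 and 0.527 against 1.14, 1.35 and 1.33 CPM, 1.52, edgeR adjusted p = 0.0461), and the 43 others had a median of -0.06, with 26 lower and 17 higher. Within 5 Mb of Gabra3, no gene was called at P0 among 80 tested by edgeR, and at P14 Gabra3 and Prrg3 were called among 78, Prrg3 also higher (38.4, 36.1 and 41.5 against 49.9, 50.6 and 49.0 CPM). As background, mouse substrains called C57BL/6 are known to differ in Gabra2 RNA. Which strain this stretch of chromosome 5 came from was not analysed here, and its part in the result was not tested.

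**Figure D4:**
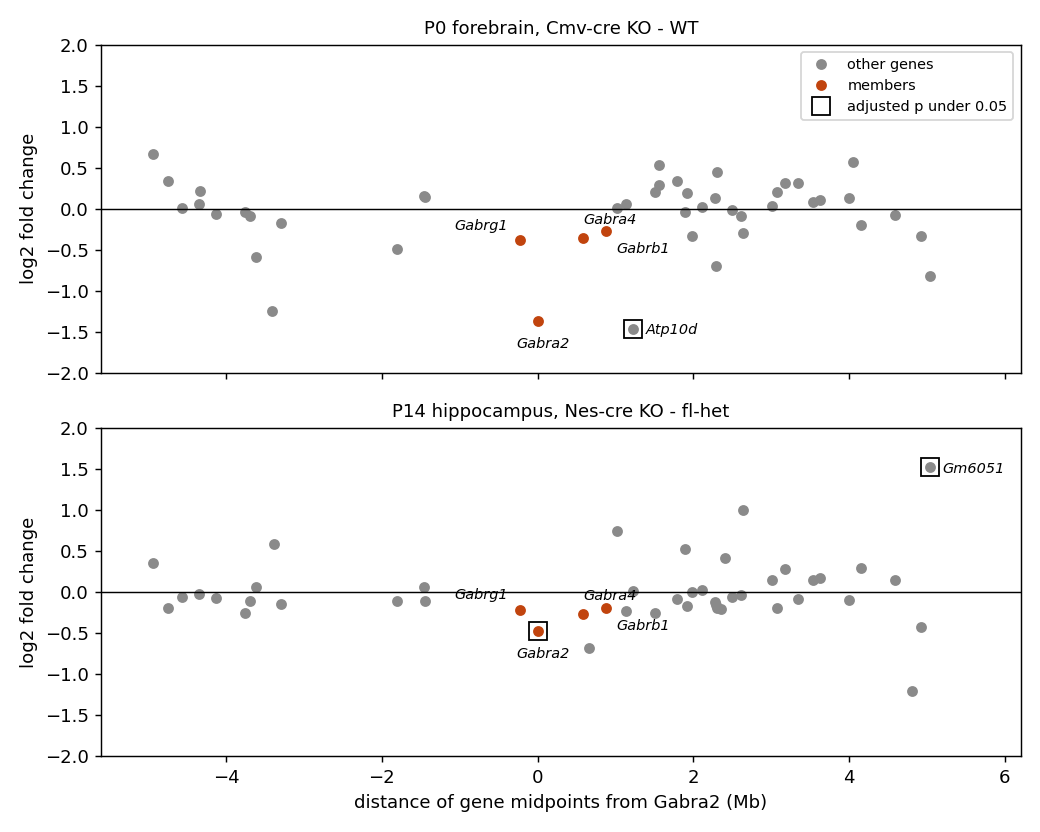
Log2 fold changes of all tested genes within 5 Mb of Gabra2, by distance between gene midpoints, at P0 (top) and P14 (bottom); squares mark an adjusted p under 0.05. At P0 Gabra2 and Atp10d lie far below the other genes near them, and at P14 Gabra2 is lower and Atp10d is near 0.

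The rest of the pathway was read from 49 further genes that build, anchor or supply inhibitory synapses. At P0, 34 of 46 tested were lower and 12 higher, none passed the adjusted threshold by edgeR (8 passed an unadjusted p of 0.05, beside 16.1% of all genes), and the median log2 fold change was -0.05. At P14, 20 were higher and 26 lower. By edgeR, 8 were higher and 4 lower there at an unadjusted p of 0.05, beside 15.2% of all genes in either direction. The 2 calls at P14, beside 1.99% of all genes, were Ajap1 and Kctd12, both of the 5 auxiliary proteins of the GABA-B receptor listed. Ajap1 rose from 35.4 ± 3.86 CPM (SD, n = 3) in the P14 controls to 48.2 ± 0.871 in the knockouts (0.46 ± 0.09, edgeR adjusted p = 0.0129). Kctd12, which speeds the receptor's desensitisation, fell from 270.2 ± 5.25 to 218 ± 8.53 CPM (-0.30 ± 0.07, edgeR adjusted p = 0.0360). The call for Ajap1 was lost without P14 knockout replicate 1 or 2 or P14 control replicate 2 (adjusted p from 0.0622 to 0.112), and in the larger strand column. That for Kctd12 was lost when any 1 P14 library other than control replicate 3 was left out (adjusted p from 0.0926 to 0.172), in the non-robust fit and in the fit on all 12 libraries. In the interaction none of the 46 tested passed by edgeR, and 5 passed an unadjusted p of 0.05, beside 15.3% of all genes. Between the controls, 30 were higher and 16 lower at P14, of which 26 and 10 passed the adjusted threshold, beside 64.7% of all genes.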

How the data were processed

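RNA-seq counts of 12 libraries were analysed. The authors deposited raw counts of reads per Ensembl gene, 1 file a library; the submitters' processing notes name STAR 2.7.5a, edgeR 3.12 and the builds mm10 and GRCm38, and the file names give annotation release 102. Reads split evenly between the strand columns (49.9% to 50.0% in one of them), and tests used the unstranded column. Reads that overlap more than 1 gene were not counted without strand. Symbols, coordinates and exon lengths came from GENCODE vM21 (GRCm38), and 55141 of 55487 identifiers had a symbol. Promoter sequences came from RefSeq.

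Labels gave the groups. Replicate numbers follow accession order and pair nothing. Pairs of replicates differed by more than sampling noise (chi-square per degree of freedom from 3.10 to 19.3).

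Tests used edgeR 4.0.16 in R 4.3.3 (filterByExpr, TMM, robust glmQLFit, glmQLFTest) on all genes, p-values adjusted by Benjamini-Hochberg over all genes tested, threshold 0.05. Each context was fitted on its own 6 libraries and the interaction on all 12. CPM used TMM factors over all 12 libraries. Errors of log2 fold changes are SE. Depth limits the members with few reads, and read counts are not independent molecules. The tests were checked on simulated data, with larger changes than most of the members' differences and without litter or batch structure.

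The members, pathway genes and markers were chosen with earlier results of these data known. All members are reported. Values in every library are given for those with an adjusted p under 0.05 in a knockout comparison or the interaction, those with an unadjusted p under 0.05 in a knockout comparison, and Slc12a2, Slc12a5, Gphn and Slc32a1; pathway genes are named when called. Alternatives were DESeq2 1.42.0, RLE normalization, the larger strand column, a non-robust fit, dropping the filter, a minimum of 10 counts per library, fitting the 12 libraries together, a term for the number series, and omitting libraries 1 at a time. The fit on the first number series, that on knockout replicate 3 against the wild types, the windows of 5 Mb and the cotransporter ratio were chosen after seeing the data. Isoforms, exon 7 and strain alleles were not analysed here.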

Additional observations from a re-analysis of the deposited data

Results flagged for a closer look

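The log2 fold change at P14 minus that at P0 passed the adjusted threshold of edgeR's interaction test in 6 members: Gabra3 (0.84), Gabrg3 (0.62), Gabrq (1.59), Gabbr2 (0.51), Slc6a11 (0.61) and Slc12a5 (0.59). Each is listed because the knockout difference itself differed between the P0 forebrain and the P14 hippocampus, which also differ in age, Cre line and control genotype. Gabra3 was called in all 18 alternatives (0.78 to 0.96). The call was lost in 9 alternatives for Gabrg3, in 3 for Gabrq, in 7 for Gabbr2, in 3 for Slc6a11 and in 10 for Slc12a5, with the same sign throughout.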

How the results depend on the processing

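Against 0 members called at P0 in the analysis as reported, DESeq2 gave 6, beside 382 of all 16176 genes tested. No filter on low counts gave 7 (all genes, 625 of 31406) and 1 fit on all 12 libraries 3 (284 of 18189). A term for the number series gave 6 (465 of 16176). The 4 libraries of the first number series, a fit chosen after seeing the data, gave 14 (2107 of 16271). Knockouts and wild types of that series also lie apart in mouse number. Leaving out 1 library gave 0 to 4 at P0, 1 to 8 at P14 (2 as reported) and 1 to 6 in the interaction (6 as reported). Between 20 and 28 tested members were lower at P0 in every alternative (28 without the filter, where more were tested). In the alternatives with at least 2 libraries a group, between 11 and 19 were lower at an unadjusted p of 0.05. Beside them, 9.17% of all genes were lower at that threshold in the analysis as reported, and the share in the alternatives is not given here. The count between the controls stayed at 19 or 20. Signs at P0 were followed for members with an unadjusted p under 0.05 and for Slc12a2, Slc12a5, Gphn and Slc32a1. Among these, Slc12a2 turned (0.127 in the first number series, and from -0.136 to 0.107 when 1 library was left out). Slc32a1 turned as well (0.126 for knockout replicate 3 against the wild types, and -0.178 to 0.011 when 1 library was left out), both near 0. Of the other members, Gabrd (0.13) and Gabbr1 (0.02) also turned in the fit on knockout replicate 3. Over all genes, the calls at P0 ranged from 50 (non-robust fit) to 2107 (first number series), beside 147 as reported, and from 1 to 775 when 1 library was left out. At P14 no filter on low counts gave 814 and DESeq2 534, beside 342, and leaving out 1 library gave 104 to 1808. In the interaction no filter gave 646, DESeq2 531 and the larger strand column 205, beside 326, and leaving out 1 library gave 125 to 905. The cause of these differences was not tested. No paired analysis was possible because the labels give no replicate numbers; the term for the number series groups the P0 libraries but pairs no animals.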
